A study of Bos taurus with 10 samples.

Results

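The genes described here are those of collagen VI and of the fibril-associated collagens XII and XIV in skeletal muscle of Hanwoo, a Korean beef breed. The set was defined by gene name and not by expression, but with earlier results of these data known: COL6A1, COL6A2, COL6A3, COL12A1 and COL14A1. A gene counted as measured where a probe set, the group of short probes that reads 1 transcript on the array, carried its symbol and no other in the platform annotation. On this rule 3 of the 5 genes were measured, COL6A1 with 3 probe sets, COL6A2 with 2 and COL12A1 with 3, of 9155 named genes in all. COL6A3 and COL14A1 carried no probe set under their symbol in that annotation and are given as not measured.

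The 10 samples form 1 group: longissimus dorsi, a back muscle sold as loin, from Hanwoo cattle numbered 1 to 10, with an age of about 2 years stated in the labels of animal 1. No treatment, genotype or trait value is attached to any sample in the labels, so no group was set against another, and the relation of expression to beef traits, which the study addressed, was not analysed here. Each animal was read once, on an Affymetrix bovine array. That they are separate cattle is taken from their numbering. If some were not, the p-values would measure technical spread.

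Collagen VI is built from alpha-1, alpha-2 and alpha-3 chains, the products of COL6A1, COL6A2 and COL6A3. The chains join inside the cell and form beaded microfilaments in the matrix around muscle fibres, next to the basement membrane. Loss of any of these chains causes inherited muscle disease in humans. Collagens XII and XIV, the products of COL12A1 and COL14A1, have short triple helices and lie on the surface of collagen I fibrils, in tendon and in the connective tissue sheets of muscle. In muscle, fibroblasts and related mesenchymal cells are the main source of these chains. Intramuscular connective tissue is a known component of meat toughness.

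Levels are log2(signal + 16) after quantile normalization, which makes the 10 arrays' distributions identical. A difference on this scale understates the fold change of dim genes. For each gene the brightest probe set stands for the gene. A gene was tested if its mean exceeded 6.98, the median level of the probe sets that are not controls. COL6A1 and COL12A1 passed this filter and COL6A2 did not, and of the 8 probe sets only 2 had a mean above it. Probe sets differ in how brightly they read a transcript, so no order among the genes is taken from their levels.

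COL6A1, the alpha-1 chain gene of collagen VI, was well above the filter in all 10 animals, with an SD below that of most tested genes. Its level was 10.45 in animal 1, 10.05 in animal 2, 10.70 in animal 3, 10.40 in animal 4 and 10.27 in animal 5. It was 10.70 in animal 6, 10.49 in animal 7, 10.52 in animal 8, 11.03 in animal 9 and 10.13 in animal 10. Animal 9 was the highest and animals 2 and 10 the lowest. The mean was 10.47 ± 0.29 (SD, n = 10) and the range 0.97, a 1.96-fold difference on the log2(signal + 16) scale. The SD of COL6A1 was at the 29.9 percentile of the 6271 tested genes, whose median SD was 0.36. These percentiles are over genes of all levels, and whether the SD depends on the level was not tested. In deposited intensity, COL6A1 ran from 1071 in animal 10 to 2055 in animal 9.

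COL12A1, the chain gene of collagen XII, varied more, with an SD more than that of most tested genes. It stood at 7.86 in animal 1, 7.42 in animal 2, 8.14 in animal 3, 8.36 in animal 4 and 7.55 in animal 5. In animals 6, 7, 8, 9 and 10 it stood at 9.26, 8.02, 8.28, 8.94 and 7.35. Animals 6 and 9 were the highest, and animals 10, 2 and 5 the lowest. The mean of COL12A1 was 8.12 ± 0.63 (SD, n = 10), with a range of 1.91, or 3.77-fold. Its SD was at the 89.9 percentile of the tested genes, among the 22.1% with an SD over 0.5. Without animals 6 and 9 the SD was 0.40.

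COL6A2, the alpha-2 chain gene, straddled the filter. Its brightest probe set had 7.89 in animal 1, 6.78 in animal 2, 6.04 in animal 3, 6.05 in animal 4 and 6.18 in animal 5. In animals 6, 7, 8, 9 and 10 the level was 6.99, 6.33, 7.24, 7.0 and 7.43. It was above the filter in 5 of 10 animals, highest in animals 1 and 10 and lowest in animals 3 and 4. With a mean of 6.79 ± 0.63 (SD, n = 10), the gene did not enter the fits over all genes, and its levels are given as a description. In deposited intensity it ran from 46.2 to 226, against a median over all probe sets of 111 to 134 per array.

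**Figure D1:**
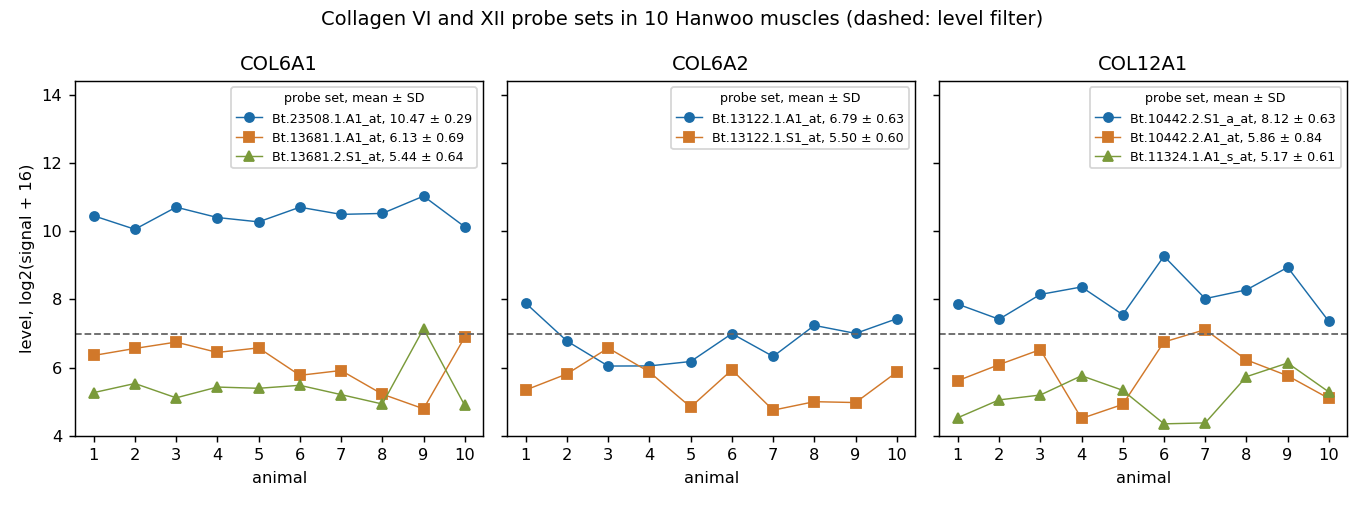
Level of each probe set, log2(signal + 16), in each of the 10 animals for COL6A1, COL6A2 and COL12A1, with the mean ± SD (n = 10) in the legends and the level filter of 6.98 as a dashed line; lines only join values of 1 probe set. The brightest sets of COL6A1 and COL12A1 lie above the filter in all animals, the COL6A2 set crosses it, and the other probe sets have means below it.

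The dimmer probe sets of these genes gave other patterns than the brightest one. The second COL6A1 probe set, with a mean of 6.13, ran opposite to the brightest, with r = -0.716 over the 10 animals. It was lowest in animal 9 at 4.79, where the brightest set was highest. The dimmest COL6A1 set, with a mean of 5.44, had r = 0.610 with the brightest but rho = 0.103. It read 7.14 in animal 9, and the other 9 animals lay from 4.89 to 5.53.

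For COL12A1, the second set (mean 5.86) had r = 0.334 with the brightest and the dimmest set (mean 5.17) had r = 0.067. The name of the dimmest set ends in _s_at, which marks probes shared by transcripts of more than 1 gene. For COL6A2 the second set (mean 5.50) had r = -0.149 with the brightest. These values describe dim signals and carry no test. Over the 885 genes whose brightest probe set passed the filter and whose second did not, the median r between both was 0.109, and 38.8% of the genes had an r below 0. The COL6A1 value of -0.716 was at the 1.13 percentile of these genes and the COL12A1 value of 0.334 at the 71.6 percentile.

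In COL6A2 and COL12A1, 2 probe sets cite the same database sequence and have names that differ in the letter A or S. The array holds 195 such pairs among its named probe sets. Their median r was -0.037, and 159 pairs had both means below the filter, 32 had 1 above it and 4 had both. The COL6A2 pair was among those with neither above and the COL12A1 pair among those with 1. The A set was the brighter one for COL6A2 and the S set for COL12A1, and over all pairs A was brighter in 82 and S in 113. Which set of a pair reads the transcript of the gene was not tested, and this holds for the set that stands for COL6A2.

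By their brightest probe sets, COL6A1 and COL12A1 varied together across the animals, though the pair did not pass the adjustment over all genes. Animal 9 ranked 1 for COL6A1 and 2 for COL12A1, animal 6 ranked 3 and 1, and animals 2, 5 and 10 were the lowest for both. The correlation was r = 0.848 (permutation p = 0.00203) and rho = 0.794 (permutation p = 0.00837, two-sided, n = 10). Leaving out animals 9 and 2, whose COL6A1 levels lay farthest from its median, gave r = 0.794, and leaving out single animals gave values from 0.815 to 0.909. Of the 10 pairs among the 5 genes, 3 could be computed.

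A linear fit in limma of every tested gene on the COL6A1 level, scaled to its SD, placed this pair among 6270 genes. COL12A1 had a slope of 0.53 log2 per SD of COL6A1 (SE 0.12), and its r had rank 13 of 6270. It did not pass the adjustment over all genes (limma adjusted p = 0.243). In the fit on COL12A1, COL6A1 had a slope of 0.25 (SE 0.08, limma adjusted p = 0.401), and its r had rank 31 of 6270. The relation also rested on the brightest probe sets: with the mean of each gene's probe sets r was -0.022. The brightest COL12A1 set had r = -0.702 with the second COL6A1 set and 0.499 with the dimmest. The brightest COL6A1 set had r = 0.367 with the second COL12A1 set and 0.195 with the dimmest.

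No covariation was detectable between the 2 measured chains of collagen VI. COL6A1 and COL6A2 had r = -0.036 (permutation p = 0.922) and rho = -0.067 (permutation p = 0.864, n = 10), with r = -0.188 without animals 9 and 2, -0.242 without animals 6 and 9 and -0.324 with median centring. Animal 3 was second highest for COL6A1 and lowest for COL6A2, and animal 10 was second highest for COL6A2 and second lowest for COL6A1. COL6A2 and COL12A1 had r = -0.027 (permutation p = 0.941) and rho = -0.164 (permutation p = 0.658), with r = 0.086 without animals 1 and 3 and -0.307 without animals 6 and 9. With COL6A2 at the filter level, the data do not show whether its transcript follows that of COL6A1. In the name table of the ARS-UCD2.0 assembly the genes lie on the same chromosome with 0 protein-coding genes between them.

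**Figure D2:**
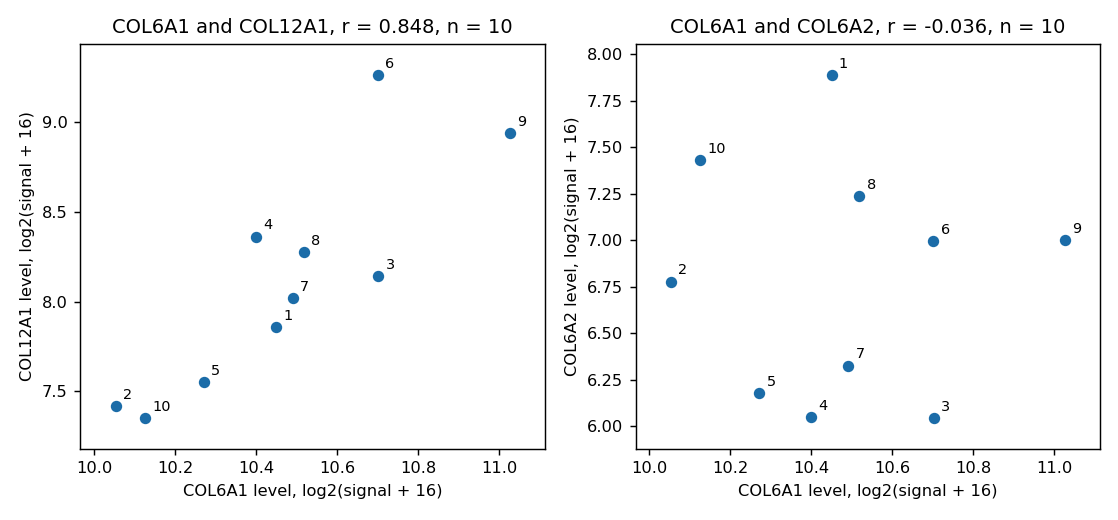
Levels of COL12A1 (left) and COL6A2 (right) against COL6A1, each as log2(signal + 16) of the brightest probe set; a point is an animal, marked with its number. COL12A1 has r = 0.848 with COL6A1, with animals 6 and 9 at the upper end, while COL6A2 has r = -0.036.

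The macrophage marker CD68, the lipolysis inhibitor G0S2 and F13A1 rose with COL12A1. F13A1 is the catalytic chain of coagulation factor XIII, a crosslinking enzyme also made by tissue macrophages. In limma these were the only 3 of 6270 genes that rose at an adjusted p below 0.05 (0.0478%), and 0 fell. Without adjustment, 483 genes had a p below 0.05, of which 320 (5.1%) had a slope above 0 and 163 (2.6%) below.

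CD68 had 8.94 in animal 6 and 8.27 in animal 9, and from 6.56 to 7.87 in the other 8. Its mean of 7.38 passed the filter of 6.98, but its level lay below it in animals 1, 2, 5, 7 and 10. These levels were 6.85, 6.77, 6.56, 6.85 and 6.85, so CD68 was dim in these animals. The slope of CD68 was 0.73 log2 per SD of COL12A1 (SE 0.10, limma adjusted p = 0.0188, r = 0.945, rho = 0.927). G0S2 had 10.25 in animal 9 and 9.99 in animal 6, and its lowest level, 6.58, in animal 2. The slope of G0S2 was 1.15 (SE 0.15, limma adjusted p = 0.0184, r = 0.930). F13A1 had 10.56 in animal 6, 10.49 in animal 9 and 7.92, its lowest, in animal 5, with a slope of 0.86 (SE 0.12, limma adjusted p = 0.023, r = 0.920). In all of them animals 6 and 9 were the highest, as in COL12A1.

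These calls rested on few animals. With each animal left out in turn, G0S2 passed in 8 of 10 fits, CD68 in 7 and F13A1 in 5. Without animal 2 and without animal 9 the count was 0, without animal 5 it was 6 and without animal 8 it was 8, in both cases with 1 that fell. Without both animals 6 and 9 it was also 0, with r = 0.819 for CD68, 0.852 for G0S2 and 0.850 for F13A1 over the other 8.

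**Figure D3:**
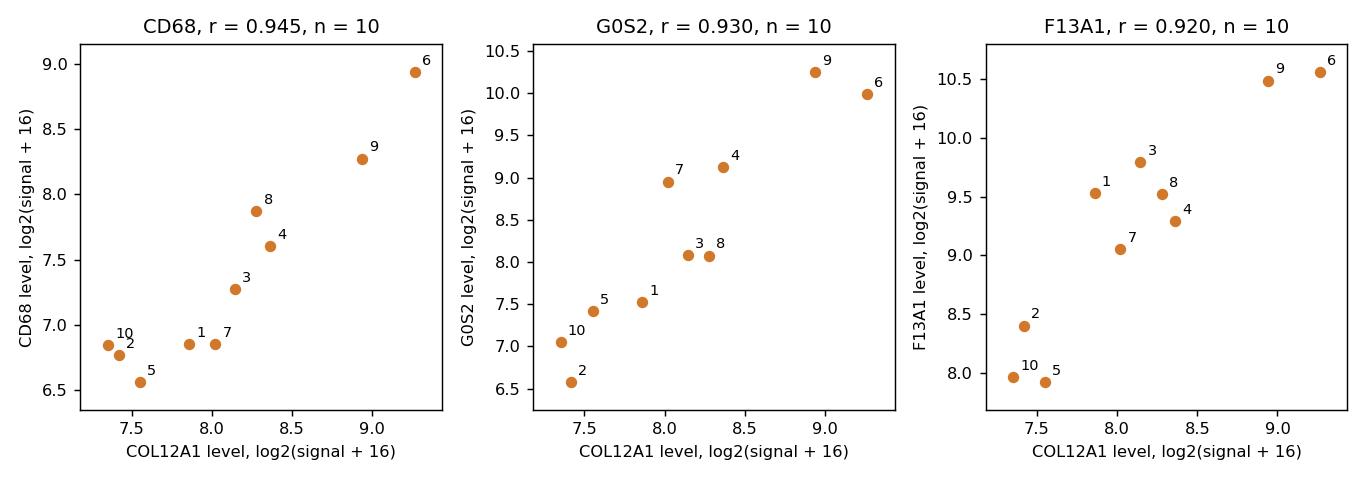
Levels of CD68, G0S2 and F13A1 against COL12A1, as log2(signal + 16), 1 numbered point per animal (n = 10). In each panel animals 6 and 9 sit at the upper right, and animals 2, 5 and 10 at the lower left.

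After these, the genes most like COL12A1 by Pearson r over the 10 animals were ARPC5, a subunit of the actin-branching complex (r = 0.920), and the intermediate filament gene VIM (r = 0.919). Neither passed (limma adjusted p = 0.166 and 0.0917). The genes with the lowest r were SERTAD1 (-0.896), TENT4A, a noncanonical poly(A) polymerase (-0.888), and the RNA-binding protein gene HNRNPDL (-0.886), with limma adjusted p of 0.298, 0.166 and 0.604.

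For COL6A1 no gene passed, and the most alike genes included fat cell markers. Of 6270 genes, 0 rose (0%) and 0 fell (0%) in limma at an adjusted p below 0.05, with a smallest adjusted p of 0.0648. Without adjustment 364 genes had a p below 0.05, with 263 slopes (4.19%) above 0 and 101 (1.61%) below. CIDEC, a protein of adipocyte lipid droplets, had the highest r (0.908), with a slope of 1.05 (SE 0.15, limma adjusted p = 0.0648). It had 10.77 in animal 9 and 6.57, its lowest level, in animal 2.

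FABP4, the fatty acid binding protein of adipocytes, had the steepest slope of these genes at 1.44 (SE 0.22, limma adjusted p = 0.0648, r = 0.889), with 13.06 in animal 9 and 7.72 in animal 2. The others at the top were the ribosomal protein gene RPL3 (r = 0.901), F13A1 (0.892) and ARPC5 (0.892). FAM118A (-0.896), TIPARP, an ADP-ribosyltransferase (-0.884), and TADA2B, a chromatin adaptor (-0.873), had the lowest r. Their limma adjusted p were 0.300, 0.0852 and 0.311. Without animal 3, CIDEC alone passed. Without animal 7, CIDEC and FABP4 did, and without animal 4, CIDEC, FABP4 and ADIPOQ.

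COL6A2, for which likeness is described without a test, had the highest r with NPEPL1 (0.957), SMARCD3 (0.936), EPS15L1 (0.924), SPRYD4 (0.908) and ORAI1 (0.886), and the lowest with GTPBP3 (-0.903), CPOX (-0.899) and GRPEL1 (-0.899). No collagen or other matrix gene of the lists below was among these.

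The other genes of the matrix were read from fixed lists, by the number of tested members and their slopes. The lists were chosen with earlier results of these data known, so their counts are a description. Both fits use the same 10 animals and their covariates are correlated, so the values on COL6A1 and COL12A1 are given side by side and are not independent. In muscle tissue, fewer cells of a type and less RNA per cell cannot be told apart. Across all 6270 genes the median r was 0.049 with COL6A1 and 0.041 with COL12A1, and 55.2% and 54.1% of the slopes were above 0. The counts of slopes above 0 in each list stand beside these shares. In limma, 4.19% of all genes had an unadjusted p below 0.05 and a slope above 0 with COL6A1, and 5.1% with COL12A1. The list counts at an unadjusted p below 0.05 stand beside those.

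Of the fibrillar collagens, on which collagen XII lies, 7 of 8 tested genes had a slope above 0 in both fits. None passed over all genes in either fit. The median r was 0.424 with COL6A1 and 0.596 with COL12A1, and 3 and 6 of the 8 genes had an unadjusted p below 0.05 with a slope above 0. COL1A1, the alpha-1 chain of collagen I, had the highest r with COL12A1 (0.831, slope 0.72, limma adjusted p = 0.119) and r = 0.603 with COL6A1. COL1A1 was highest in animal 6, followed by 10.88 in animal 9, and ran from 8.38 to 9.74 in the other 8. COL5A3, of the collagen V chains that regulate fibril diameter, had the highest r with COL6A1 (0.629). COL2A1, the cartilage collagen, was the exception, with r = -0.229 with COL6A1 and -0.239 with COL12A1.

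Small leucine-rich proteoglycans, which bind collagen fibrils, had a slope above 0 for 8 of 8 genes in both fits. The median r was 0.527 with COL6A1 and 0.764 with COL12A1, and 4 and 7 of 8 genes had an unadjusted p below 0.05. Lumican, LUM, had the highest r with COL12A1 (0.846, slope 0.79, limma adjusted p = 0.0973), and biglycan, BGN, with COL6A1 (0.658). PRELP had the lowest r with COL12A1 (0.46) and fibromodulin, FMOD, with COL6A1 (0.383).

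Among matrix glycoproteins, 16 of 16 slopes were above 0 in both fits, and none of the genes passed over all genes. The median r was 0.655 with COL6A1 and 0.741 with COL12A1, with 12 and 14 of 16 at an unadjusted p below 0.05. EFEMP1, an elastic fibre protein also called fibulin-3, had r = 0.892 with COL12A1 (slope 0.53, limma adjusted p = 0.0917). Fibrillin-1, FBN1, had the highest r with COL6A1 (0.779, slope 0.31, limma adjusted p = 0.578). The lowest were VCAN with COL12A1 (0.038) and THBS1 with COL6A1 (0.125).

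Basement membrane genes, which lie next to collagen VI in muscle, had 9 of 9 slopes above 0 in both fits. The median r was 0.516 with COL6A1 and 0.583 with COL12A1. The collagen IV chain COL4A1 had the highest r with COL6A1 (0.751) and the laminin chain LAMB1 with COL12A1 (0.793). LAMB2 had the lowest r with both, 0.120 and 0.257. Of the 6 tested receptors and binding partners of collagen VI, 6 had a slope above 0 with COL6A1 (median r 0.485) and 4 with COL12A1 (median r 0.647). Tenascin-X, TNXB, had the highest r with COL6A1 (0.631) and the microfibril gene MFAP2 with COL12A1 (0.839). ITGB1, the beta-1 integrin, had the lowest r with both, 0.095 and -0.045.

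Of 15 tested genes of collagen processing, which fold, modify and crosslink the chains, 14 had a slope above 0 with COL6A1 and 13 with COL12A1, with median r of 0.388 and 0.422. COLGALT1, which glycosylates collagen lysines, had the highest r with both, 0.704 and 0.830. PLOD1, a lysyl hydroxylase, had the lowest r with COL6A1 (-0.256) and P4HB, a subunit of prolyl hydroxylase, with COL12A1 (-0.225). Among 10 tested matrix proteases and inhibitors the median r was 0.270 with COL6A1 and 0.448 with COL12A1. The protease inhibitor gene A2M had the highest r with both, 0.888 and 0.911 (limma adjusted p = 0.243 and 0.106). ADAMTS4 had the lowest r with both, 0.006 and 0.085. The 6 tested TGF-beta pathway genes had median r of 0.093 and 0.126, with 3 of 6 slopes above 0 in both fits. The lowest r was that of SMAD4 with COL6A1 (-0.416) and of SMAD2 with COL12A1 (-0.393), both signal transducers, and the highest that of the target gene CCN2 (0.503 and 0.568). Of the other collagen VI and fibril-associated chains only COL21A1 was tested, with r = 0.150 and 0.274.

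**Figure D4:**
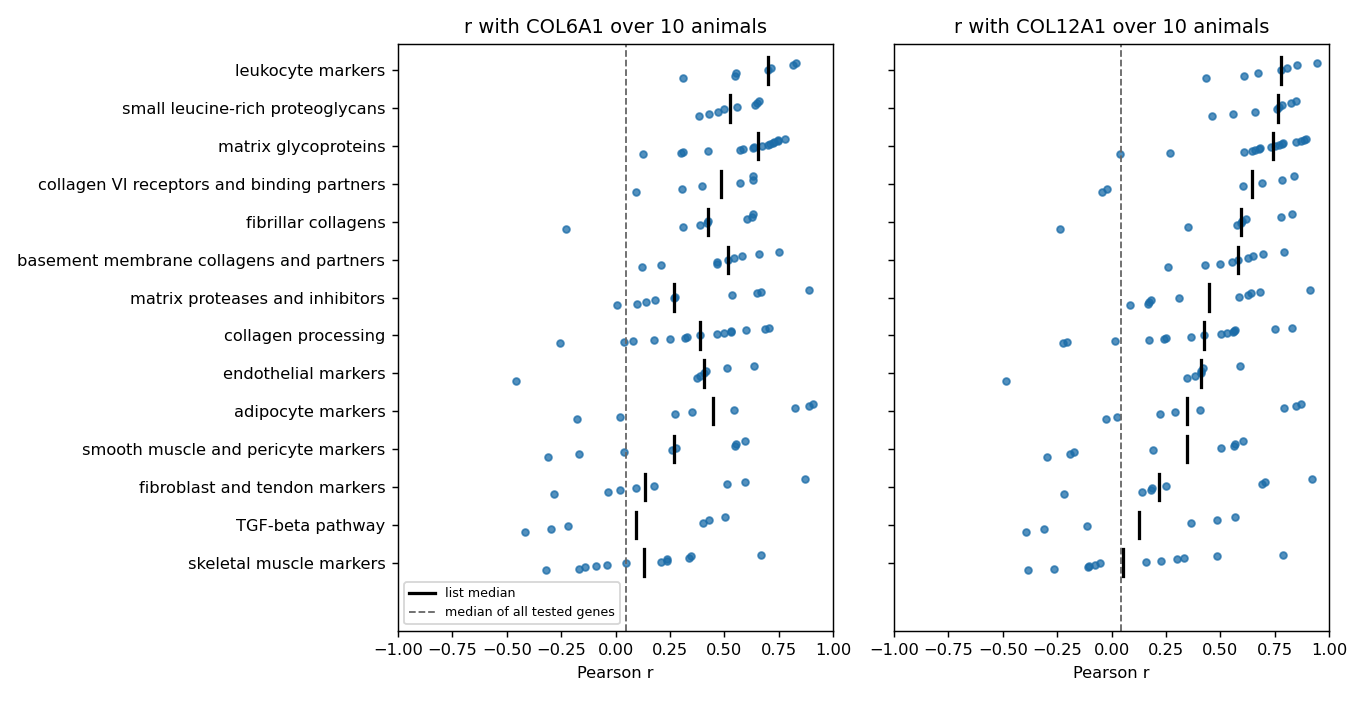
Pearson r over the 10 animals of each tested gene with COL6A1 (left) and COL12A1 (right), by fixed gene list; a point is a gene, a black bar the list median and the dashed line the median of all 6270 genes. Medians of matrix and leukocyte lists lie to the right of the dashed line in both panels. So do those of adipocyte, endothelial, and smooth muscle and pericyte markers. Those of skeletal muscle markers (0.128 and 0.051) and of TGF-beta pathway genes (0.093 and 0.126) lie near it. The fibroblast and tendon list has 0.136 with COL6A1 and 0.218 with COL12A1.

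Markers of other cell types were read the same way. All 7 tested leukocyte markers had a slope above 0 in both fits, with median r of 0.701 with COL6A1 and 0.780 with COL12A1. CD68 passed in the COL12A1 fit, and the complement genes C1QA and C1QB had r of 0.806 and 0.851 with COL12A1 and of 0.817 and 0.828 with COL6A1. CD3E had the lowest r of the list with both, 0.312 with COL6A1 and 0.432 with COL12A1. The mean level of this list ran from 6.87 in animal 5 to 8.53 in animal 6. Of 8 adipocyte markers 7 had a slope above 0 in both fits, with median r of 0.447 with COL6A1 and 0.348 with COL12A1. ADIPOQ, FABP4 and CIDEC had r from 0.824 to 0.908 with COL6A1, while GPD1, PCK1 and CIDEA had from 0.020 to 0.349 with it. LPL had -0.179 with COL6A1 and -0.027 with COL12A1. The adipocyte mean level ran from 9.03 in animal 2 to 10.93 in animal 9.

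The markers of fibroblasts, which make these collagens, and of tendon cells were read as 1 list. Its 8 tested genes had a median r of 0.136 with COL6A1 and 0.218 with COL12A1. The tendon markers SCX, TNMD and MKX of this list were not among the tested genes. VIM was the highest (0.869 and 0.919), followed by S100A4 (0.593 and 0.703) and FAP (0.514 and 0.691). TCF7L2, PDGFRB and TCF4 had r from 0.022 to 0.178 with COL6A1 and from 0.140 to 0.251 with COL12A1. THY1 was the lowest (-0.281 and -0.218). PDGFRA, which marks fibro-adipogenic cells, had -0.036 and 0.180. Endothelial markers had median r of 0.407 and 0.409 over 7 genes and smooth muscle and pericyte markers 0.269 and 0.346 over 8. The nerve markers MBP and S100B had r of -0.157 and 0.501 with COL6A1 and of 0.140 and 0.674 with COL12A1. HBA, the only red cell gene tested, had -0.442 and -0.124. The 12 skeletal muscle markers had median r of 0.128 and 0.051, and their mean level stayed between 15.62 and 15.72 in all animals. Each had a mean between 15.34 and 16.05 and an SD from 0.04 to 0.14, at the bright end of the arrays, and whether these probe sets were saturated was not tested. TNNT1, the slow skeletal troponin T, had the highest r of them, 0.668 and 0.788. The part of any of these cell types in the covariation was not tested.

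With animals 6 and 9 left out, the median r of the matrix glycoproteins was 0.488 with COL6A1 and 0.577 with COL12A1 over 15 genes. That of the small proteoglycans was 0.219 and 0.470 over 7, that of the fibrillar collagens 0.222 and 0.334 over 8, and that of the leukocyte markers 0.397 and 0.516 over 6. The adipocyte markers had 0.257 and 0.305 over 7, and the proteases and inhibitors turned to -0.064 and -0.067 over 10. The TGF-beta genes had 0.037 and -0.153 over 6, the skeletal muscle markers 0.158 and 0.043 over 12, and HBA -0.555 and -0.299. The collagen processing genes had 0.087 and 0.173 over 15, near the median of all genes for COL6A1. Collagen VI receptors and binding partners had 0.242 and 0.532 over 6, and basement membrane genes 0.385 and 0.387 over 9. Endothelial markers had 0.383 and 0.277 over 7, and smooth muscle and pericyte markers 0.272 and 0.196 over 8. The fibroblast and tendon list had 0.121 and 0.149 over 7, and the nerve and glia list -0.027 and 0.219 over 2. The median over all 6257 genes tested then was 0.064 and 0.072.

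The dim probe sets showed other patterns with the same lists. The second COL6A1 set had a median r of -0.479 with the matrix glycoproteins, below 0 for 16 of 16, and of -0.589 with the leukocyte markers. The dimmest COL6A1 set had 0.332 and 0.417. The brightest COL6A2 set had -0.104 and 0.180, and the dimmer COL6A2 set 0.121 and 0.105. For the dimmer COL12A1 sets the median r with matrix glycoproteins was 0.322 and 0.098.

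**Figure D5:**
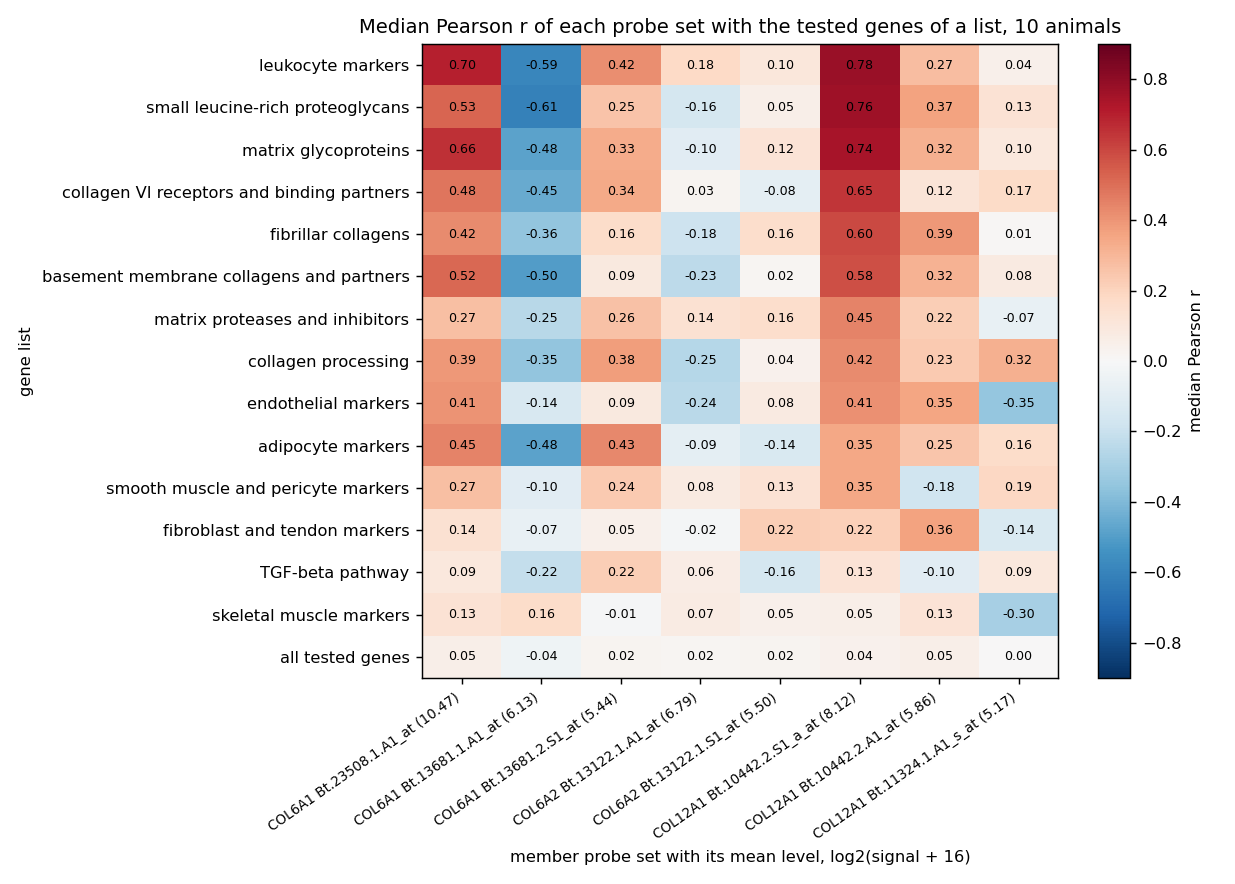
Median Pearson r over the 10 animals between each of the 8 member probe sets (columns, with the mean level as log2(signal + 16)) and the tested genes of each list (rows). The brightest COL6A1 and COL12A1 sets have positive medians with the matrix lists, and the second COL6A1 set has negative ones; the brightest COL6A2 set has -0.184 with fibrillar collagens and -0.254 with collagen processing genes.

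The arrays differed in 2 control measures. For the spiked poly(A) RNAs, the 3' end was brighter than the 5' end by 2.93 on the log2 scale in animal 5, and by 1.40 to 1.70 in the other 9. In limma, 267 of 6271 genes (4.26%) rose and 690 (11%) fell with it, and at an unadjusted p below 0.05 11.1% had a slope above 0 and 18.8% below. COL6A1 (slope -0.08, limma adjusted p = 0.632) and COL12A1 (-0.20, limma adjusted p = 0.513) did not pass. Without animal 5, 0 genes passed in that fit, and the r between COL12A1 and the control difference was -0.007, against -0.311 with all 10. The level of the hybridization controls spanned 1.98, and 0 of 6271 genes rose (0%) or fell (0%) with it in limma, with 285 at an unadjusted p below 0.05 (1.9% above 0 and 2.65% below). COL6A1 had r = 0.037 and COL12A1 r = -0.016 with that level. For COL6A2, which was not in the fits, r was higher, at 0.413 (permutation p = 0.234, rho = 0.418, n = 10). Animals 1 and 10, the highest for COL6A2, had the highest control levels, 12.91 and 12.90. With the poly(A) control difference COL6A2 had r = -0.228, and 0.490 without animal 5. Over the 45 pairs of arrays r lay from 0.901 to 0.959, and none held identical values.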

How the data were processed

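Muscle RNA of 10 Hanwoo cattle was measured on 10 Affymetrix bovine arrays. Per the labels' protocols, Trizol extraction and poly(A) purification preceded biotin labelling. The authors deposited a linear intensity for each probe set. For their summarisation, software is not named in the labels or headers. The trimmed mean, which leaves out a share of the lowest and highest values, was between 500.177 and 500.203 on every array. The number of arrays limits the precision.

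Intensities were turned into log2(signal + 16) and quantile normalized over 24016 probe sets without the 112 controls. Of these probe sets, 13292 had 1 gene symbol, 86 had several and 10638 had none listed. Symbols were checked by gene ID against the ARS-UCD2.0 name table, which changed 0 of them. The brightest probe set stood for a gene, and 6271 of 9155 genes passed the level filter.

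Covariation was fitted in R 4.3.3 with limma 3.58.1, using the level of COL6A1, of COL12A1 or of an array control as covariate and the Benjamini-Hochberg adjustment over all genes at 0.05, in each fit alone. Pairs were tested with two-sided permutations (100000 resamples). The fits were tested on simulated data. The members and the 18 gene lists were chosen with earlier results of these data known. Named genes are the members, the 5 with the highest and 3 with the lowest r for each member, and, in each list, genes that passed or those at the ends of r; others were chosen after their values were seen. Alternatives were the deposited scaling, median centring, pseudocounts of 1 and 64, no filter, the 75th percentile as filter, averaging all probe sets per gene, the poly(A) control difference added to the fit, each animal left out in turn and, chosen after seeing the data, animals 6 and 9 left out.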

Additional observations from a re-analysis of the deposited data

Results flagged for a closer look

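Of 10 sets of values over the 10 animals, the 8 member probe sets and 2 array control measures, 2 had an animal far from the others, where chance flags about 1 set in 20. The COL6A1 probe set with the lowest mean read 7.14 in animal 9, with the next highest animal at 5.53. The spiked poly(A) RNAs had a 3' end brighter than the 5' end by 2.93 (log2) in animal 5, with the next highest at 1.70.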

How the results depend on the processing

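The count of genes that passed with COL12A1 varied with the setting. It was 3 with the deposited scaling and with a pseudocount of 1, each time CD68, F13A1 and G0S2, but 5 with median centring, 7 with a pseudocount of 64 and 8 (7 that rose and 1 that fell) when the poly(A) control difference was added to the fit. It was 0 without the level filter and 0 without animals 6 and 9, and from 0 to 8 with each animal left out, where the 8 were 7 that rose and 1 that fell. With the filter at the 75th percentile or the mean of probe sets, COL12A1 lay below the filter and gave no value. The count for COL6A1, 0, was 2 with a pseudocount of 64, CIDEC and FABP4, and from 0 to 3 with each animal left out. The r of COL6A1 with COL12A1 was -0.0219 with the mean of probe sets and from 0.815 to 0.909 with each animal left out, and its larger adjusted p stayed between 0.334 and 0.729 in the fits with an animal left out. The r of COL6A1 with COL6A2 was 0.00197 with the mean of probe sets, -0.324 with median centring, -0.242 without animals 6 and 9 and from -0.155 to 0.135 with each animal left out, and that of COL6A2 with COL12A1 was 0.0832 with the deposited scaling, -0.307 without animals 6 and 9 and from -0.153 to 0.148. The count for the poly(A) control difference was 634 without the filter and from 0, without animal 5, to 1026. The count for the hybridization control level was 16 with the deposited scaling. The SD was 0.40 for COL6A2 and 0.38 for COL12A1 with the mean of probe sets, and 0.40 for COL12A1 without animals 6 and 9. The cause of these shifts was not tested. No paired analysis was possible because the samples form 1 group. Pairs with COL6A3 or COL14A1 gave no value. Low signal limits COL6A2 and the dimmer probe sets.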
